A study of Homo sapiens with 18 samples.

Results

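The immediate-early genes described here are FOS, FOSB, FOSL2, JUN, JUNB, JUND, EGR1, IER2, ATF3 and DUSP1. These 10 genes were taken by symbol and were listed in both leukaemia lines, among 17110 genes for HL-60, 17475 for MOLM-13 and 15517 listed in both. They were chosen by their log2 values over the 6 groups, so their levels and differences are given as a description and carry no test. Both lines are human and established: HL-60 derives from a promyelocytic leukaemia, and MOLM-13 from an acute myeloid leukaemia with monocytic features. Each line was exposed for 48 h (day 2) to the solvent DMSO, to DAC (decitabine, a cytidine analogue that traps DNA methyltransferases) or to NTX-301, a DNA methyltransferase inhibitor, with 3 replicates in each group and 18 samples in all. HL-60 cells received 30 nM and MOLM-13 cells 15 nM. The wording does not settle whether this holds for NTX-301 as well as DAC, and line and dose cannot be told apart. All groups shared the same serum-containing medium and each line stands for 1 established line. The replicates are triplicate wells, and where wells came from 1 culture the spread between them is partly technical.

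Immediate-early genes are switched on within minutes of a growth factor, cytokine or stress signal, from factors already present in the cell, and their transcripts decay quickly. FOS and JUN proteins pair through leucine zippers to form AP-1, which binds a short palindromic element in enhancers. EGR1 is a zinc finger factor on the same signalling route from the ERK kinases, and DUSP1 is a phosphatase that removes the phosphates which activate MAP kinases. In myeloid cells AP-1 and EGR1 take part in monocyte and macrophage differentiation.

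Promoters of 4 of these genes are shown because the values turn on them: FOS and FOSB, which lay on opposite sides of DMSO in the lines, EGR1, which was lower with NTX-301 in both, and DUSP1, which was close to the lower end of the scale in HL-60 only. Each is the 250 bases before the start site, 5′ to 3′, from RefSeq (GRCh38.p14), a table that held all 10 genes. The windows are chr14:75278578-75278827 (plus strand) for FOS, chr19:45467746-45467995 (plus) for FOSB, chr5:138465229-138465478 (plus) for EGR1 and chr5:172771196-172771445 (minus) for DUSP1. Capitals mark every match, on either strand, to the motifs searched.
FOS: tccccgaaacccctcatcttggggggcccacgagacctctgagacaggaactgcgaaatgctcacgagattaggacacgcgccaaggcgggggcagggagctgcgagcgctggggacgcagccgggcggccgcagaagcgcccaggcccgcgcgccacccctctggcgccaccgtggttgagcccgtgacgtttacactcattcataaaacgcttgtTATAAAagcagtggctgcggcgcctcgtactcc
FOSB: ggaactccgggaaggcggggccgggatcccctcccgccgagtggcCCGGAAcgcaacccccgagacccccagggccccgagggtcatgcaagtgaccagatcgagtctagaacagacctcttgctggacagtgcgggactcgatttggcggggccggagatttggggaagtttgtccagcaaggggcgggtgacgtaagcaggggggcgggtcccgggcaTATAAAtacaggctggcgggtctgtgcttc
EGR1: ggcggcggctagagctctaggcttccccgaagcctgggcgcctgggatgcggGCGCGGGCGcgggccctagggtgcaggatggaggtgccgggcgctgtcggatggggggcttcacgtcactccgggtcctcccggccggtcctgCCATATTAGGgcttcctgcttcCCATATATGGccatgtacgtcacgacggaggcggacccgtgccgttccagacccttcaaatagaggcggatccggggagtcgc
DUSP1: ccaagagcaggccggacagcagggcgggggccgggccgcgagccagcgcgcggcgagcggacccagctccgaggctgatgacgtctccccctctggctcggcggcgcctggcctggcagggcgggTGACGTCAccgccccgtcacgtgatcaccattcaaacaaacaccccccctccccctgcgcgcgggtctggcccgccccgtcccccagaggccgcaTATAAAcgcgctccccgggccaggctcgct

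The motifs were the AP-1 element TGANTCA, the cAMP element TGACGTCA, the EGR element GCGNGGGCG and the ETS core CCGGAA. The TATA box TATAAA and the serum response element were searched too, the latter as CC and GG with a fixed run of A or T between. No motif match overlapped another in these 4 windows. The TATA box lay in 4 of the 10 windows, those of FOS, FOSB, JUNB and DUSP1, against 10.7% of 35116 promoters of the same length. Its first base was 33 bases before the start site in FOS and 30 in both FOSB and DUSP1. EGR1 held 2 serum response elements (1.16% of all promoters hold at least 1) and 1 EGR element (8.41%). The cAMP element was in JUND and DUSP1 (1.65%), and the ETS core in FOSB and IER2 (14.5%). None of the 10 windows held the AP-1 element, which 6.57% of all promoters hold. The ATF3 window had 4 CpG pairs and was the only one of the 10 under the all-promoter median of 11, while that of JUND had 40. Only 1 window per gene was read, the first listed, and elements further upstream were not searched. Other start sites, where a gene has them, were not searched and may differ in motifs and CpG pairs. A match describes these letters and not a bound site.

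The deposited values are log2 expression with 1 value per gene and sample, and the read depth behind them is unknown. All 10 myeloid markers examined were listed in both lines, whereas of the lymphoid, erythroid, epithelial and fibroblast lists only 3 of 22 genes were listed in HL-60 and 8 of 22 in MOLM-13. The summed level of the myeloid list in HL-60 was 19.08 to 19.16 with DMSO, 19.07 with DAC and 18.72 to 18.75 with NTX-301, and in MOLM-13 18.45 to 18.46, 18.76 to 18.79 and 18.44 to 18.54. Sums were taken on the linear scale, and MPO alone read 18.71 in HL-60 with DMSO, most of that sum. Of the T cell list only TRAC was listed in HL-60, at 6.43 to 6.47, 6.68 to 6.79 and 7.02 to 7.14, while CD3D, CD3E and CD3G were not. CD79A, the B cell marker listed there, read 6.42 to 6.44, 6.49 to 6.50 and 6.76 to 6.86. KRT8, the epithelial marker listed there, read 4.595 to 4.657, 4.613 to 4.623 and 4.698 to 4.775. In MOLM-13 the summed T cell list (CD3D and TRAC) read 9.44 to 9.48, 9.50 to 9.53 and 9.70 to 9.79, and COL1A1 read 5.81 to 5.84, 5.96 to 6.07 and 6.02 to 6.08. HBB and HBA1 summed there read 9.04 to 9.56, 8.88 to 9.38 and 9.29 to 9.89. KRT8 and KRT18 summed read 9.32 to 9.47, 9.46 to 9.52 and 9.38 to 9.44. PAX5 read 4.95 to 5.01, 5.01 to 5.04 and 4.98 to 5.11. The part of these levels in the results was not tested. The 12 ribosomal RNA rows, chosen after their values were seen, held 0.354% to 0.416% of the linear sum in HL-60 DMSO samples, 0.353% to 0.480% with DAC and 0.522% to 0.668% with NTX-301. In MOLM-13 they held 0.105% to 0.126%, 0.149% to 0.208% and 0.167% to 0.183%. The HL-60 DAC shares overlapped those of DMSO, while the other drug groups lay above the DMSO of their line. Over the 9 MOLM-13 samples their deviations from group means ran with those of ATF3 (Pearson's r = 0.88), IER2 (0.86), JUND (0.85), JUNB (0.76), JUN (0.66), FOSB (0.61), DUSP1 (0.57), FOS (0.41) and FOSL2 (0.28), and EGR1 gave -0.34. In HL-60 the 10 members ranged from -0.35 for JUN to 0.54 for FOSL2. What part they had in the values below was not tested. The lines appear to have been normalised separately, so levels are set side by side across lines and compared only within a line. Low genes vary little around their own mean in the deposited values, so their differences may be understated.

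1 library has to be named before the values. The third MOLM-13 DMSO sample was high in FOS, FOSB and DUSP1, although its typical gap to the other DMSO samples was 0.037 over all genes, within the 0.037 to 0.053 of the 9 MOLM-13 samples. The differences of FOS, FOSB and DUSP1 from DMSO in MOLM-13 are given with and without it.

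In HL-60, FOS and FOSB, the AP-1 subunits that must pair with a JUN protein, were lower with DAC and lower still with NTX-301. FOS read 11.10, 10.98 and 11.05 with DMSO, 10.70, 10.71 and 10.62 with DAC, and 10.09, 10.10 and 10.11 with NTX-301. The 3 groups did not overlap, and the NTX-301 samples were nearly level with each other. The difference from DMSO was -0.36 ± 0.035 (limma SE, n = 3 per group) with DAC and -0.94 ± 0.035 with NTX-301, which left 77.8% and 52.1% of the DMSO level. That SE, given with each difference here, draws the spread of a gene toward that of genes of like level. FOSB read 9.65, 9.39 and 9.44 with DMSO, 9.02, 9.14 and 8.92 with DAC, and 8.42, 8.59 and 8.43 with NTX-301. Its groups too were apart, with differences of -0.46 ± 0.070 and -1.01 ± 0.070, or 72.5% and 49.6% of the DMSO level. Between the drugs, NTX-301 was below DAC by -0.58 ± 0.035 for FOS and -0.55 ± 0.070 for FOSB.

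**Figure D1:**
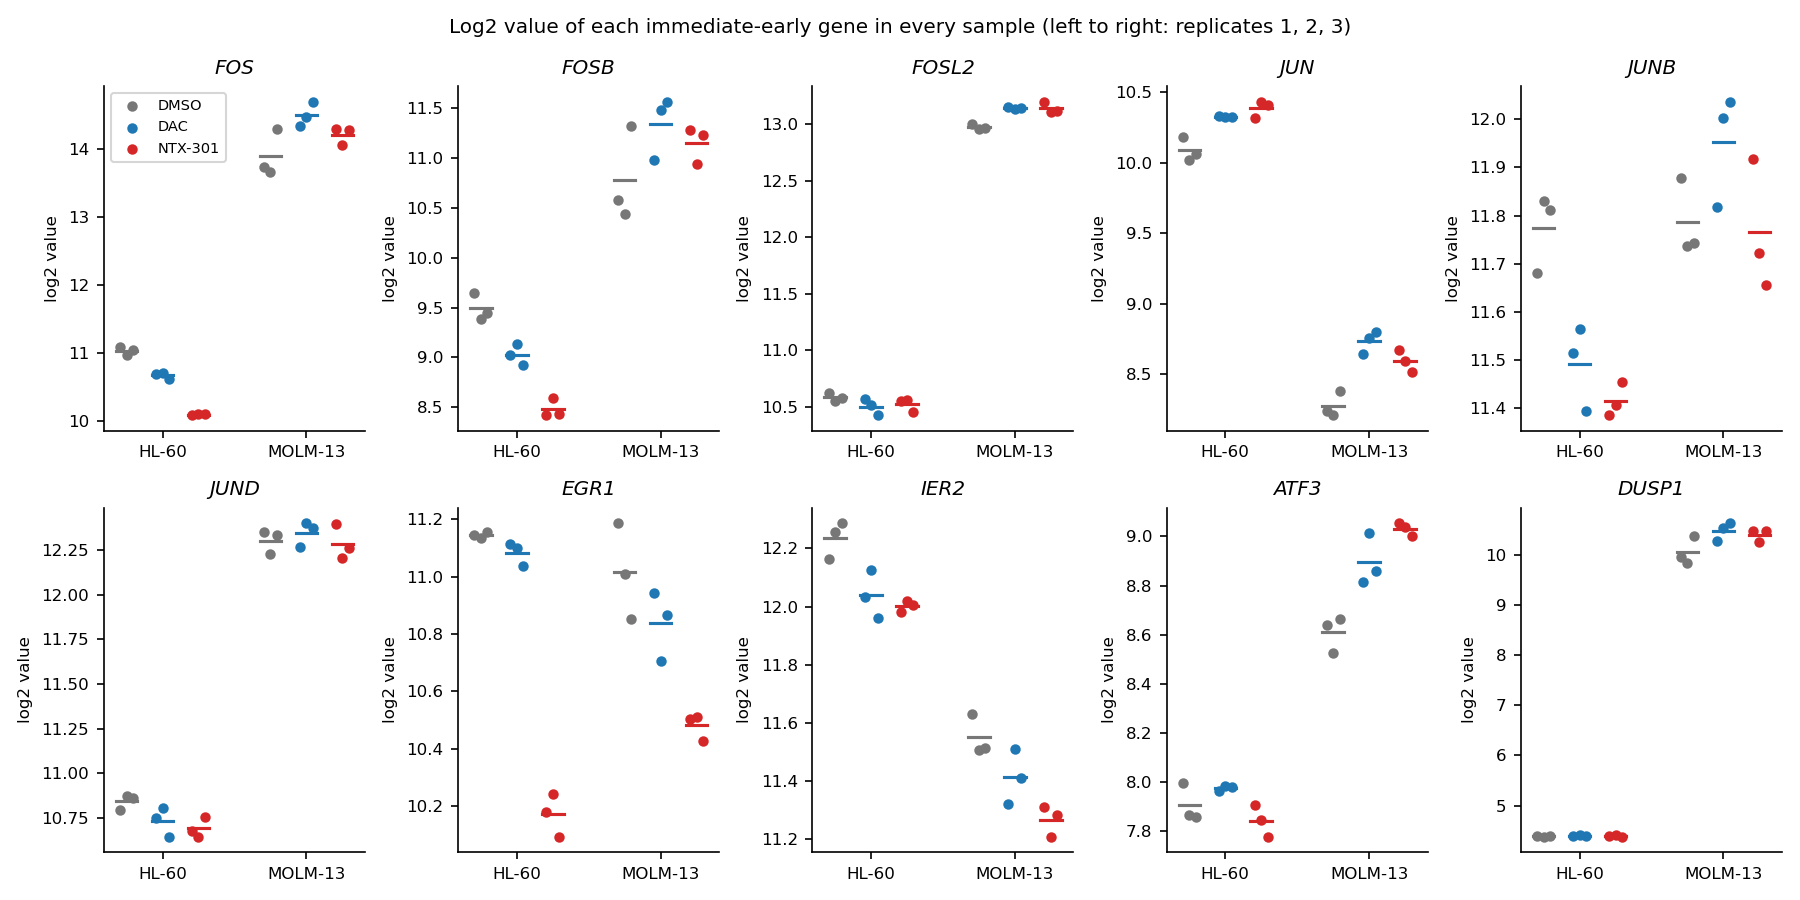
Log2 value of each of the 10 genes in every sample, by line on the x axis and agent by colour, with replicates 1 to 3 from left to right and a bar at the group mean; each panel has its own y axis. FOS and FOSB step down from DMSO to DAC to NTX-301 in HL-60 and sit higher with the drugs in MOLM-13, where the third DMSO sample reaches 14.30 and 11.32.

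In MOLM-13 the same pair was higher with the drugs. FOS read 13.74, 13.67 and 14.30 with DMSO, 14.34, 14.48 and 14.70 with DAC, and 14.30, 14.06 and 14.29 with NTX-301. All DAC samples lay above all DMSO samples, while the third DMSO sample stood level with the top NTX-301 samples. FOS was higher by 0.60 ± 0.14 with DAC and 0.31 ± 0.14 with NTX-301. Without the third DMSO sample these were 0.80 and 0.51, and without the second DMSO sample, the lowest, 0.48 and 0.19. FOSB read 10.58, 10.44 and 11.32 with DMSO, 10.98, 11.48 and 11.57 with DAC, and 11.28, 10.94 and 11.24 with NTX-301. The third DMSO sample was above all NTX-301 samples and the first DAC sample, so the groups overlapped. FOSB was higher by 0.56 ± 0.20 and 0.37 ± 0.20, by 0.83 and 0.64 without the third DMSO sample, and by 0.39 and 0.20 without the second. NTX-301 was below DAC by -0.29 ± 0.14 for FOS, or -0.19 without the third DAC sample. For FOSB the gap between the drugs was -0.19 ± 0.20, with a range of -0.37 to -0.079 when 1 sample was left out. That gap is smaller than its error. For FOS and FOSB in this line the limma SE is below what their own spread alone would give.

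FOSL2, a further FOS family subunit, moved less. Its HL-60 samples ran from 10.42 to 10.62 with overlapping groups, and its differences of -0.081 and -0.061 were -0.042 without the third DAC sample and -0.027 without the third NTX-301 sample. In MOLM-13 its DMSO samples ran from 12.96 to 13.00 and its drug samples from 13.10 to 13.20, without overlap, a difference of 0.16 ± 0.028 with either drug. Quantile normalisation within the line raised these to 0.25 and 0.27.

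Among the JUN proteins, JUN was the member that was higher with both drugs in both lines. In HL-60 it read 10.19, 10.02 and 10.06 with DMSO, 10.33, 10.32 and 10.32 with DAC, and 10.32, 10.43 and 10.41 with NTX-301. Every drug sample was above every DMSO sample, with differences of 0.24 ± 0.042 and 0.30 ± 0.042. In MOLM-13 it read 8.24, 8.21 and 8.38 with DMSO, 8.64, 8.76 and 8.80 with DAC, and 8.67, 8.59 and 8.52 with NTX-301. The drug samples again did not overlap DMSO, with differences of 0.46 ± 0.064 and 0.32 ± 0.064. In HL-60, JUN was thus above DMSO in the samples in which FOS and FOSB, its partners in AP-1, were below.

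JUNB, a JUN protein that often restrains JUN activity, was lower in HL-60. It ran from 11.68 to 11.83 with DMSO, 11.39 to 11.56 with DAC and 11.39 to 11.45 with NTX-301. The drug groups lay wholly below DMSO, by -0.28 ± 0.044 and -0.36 ± 0.044. In MOLM-13 it differed by 0.17 ± 0.070 with DAC and -0.021 ± 0.070 with NTX-301, and both groups overlapped DMSO. JUND, which is expressed more steadily than the other JUN genes, showed the least movement of the JUN proteins. It differed by -0.11 ± 0.042 with DAC (-0.065 without the third DAC sample) and -0.15 ± 0.042 with NTX-301 in HL-60, where only the NTX-301 group was clear of DMSO. In MOLM-13 its differences were 0.043 ± 0.051 and -0.017 ± 0.051.

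EGR1 separated the drugs more than any AP-1 subunit did in HL-60. It read 11.15, 11.13 and 11.16 with DMSO, 11.11, 11.10 and 11.04 with DAC, and 10.18, 10.24 and 10.09 with NTX-301. The DAC samples were just below DMSO, whereas the NTX-301 samples were far below both. The difference was -0.063 ± 0.036 with DAC (-0.039 without the third DAC sample) and -0.97 ± 0.036 with NTX-301, and NTX-301 was below DAC by -0.91 ± 0.036, or 53.2% of the DAC level. In MOLM-13 it read 11.19, 11.01 and 10.85 with DMSO, 10.94, 10.71 and 10.87 with DAC, and 10.50, 10.51 and 10.43 with NTX-301. All NTX-301 samples were below every other sample, and the DAC samples overlapped DMSO. EGR1 was lower by -0.18 ± 0.076 with DAC (-0.094 without the first DMSO sample and -0.11 without the second DAC sample) and by -0.54 ± 0.076 with NTX-301, and NTX-301 was below DAC by -0.36 ± 0.076. In MOLM-13 EGR1 and FOS thus lay on opposite sides of DMSO with both drugs.

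IER2, an immediate-early nuclear protein, was lower with the drugs in both lines. It ran from 12.16 to 12.29 with DMSO in HL-60, against 11.96 to 12.13 with DAC and 11.98 to 12.02 with NTX-301. No drug sample reached the DMSO range, and the differences were -0.20 ± 0.039 and -0.23 ± 0.039. In MOLM-13 the values were 11.63, 11.51 and 11.51 with DMSO, 11.32, 11.51 and 11.41 with DAC, and 11.31, 11.21 and 11.28 with NTX-301. The second DAC sample reached the DMSO range and the NTX-301 samples did not. The differences were -0.14 ± 0.050 with DAC, or -0.091 without the first DAC sample and -0.090 under quantile normalisation, and -0.28 ± 0.050 with NTX-301.

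ATF3, a stress-induced AP-1 partner that often represses transcription, was higher in MOLM-13 with both drugs and overlapped DMSO in HL-60. In MOLM-13 it read 8.64, 8.53 and 8.66 with DMSO, 8.81, 9.01 and 8.86 with DAC, and 9.05, 9.04 and 9.001 with NTX-301. Both drug groups were clear of DMSO, by 0.29 ± 0.060 and 0.42 ± 0.060. In HL-60 it ran from 7.78 to 7.997 over the 9 samples, with differences of 0.069 ± 0.046 and -0.063 ± 0.046. Without the first DMSO sample these were 0.11 and -0.018, and without the third the DAC difference was 0.045. The NTX-301 difference was -0.094 without the first NTX-301 sample and -0.030 without the third. Under quantile normalisation the differences were 0.035 and -0.14.

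DUSP1, the phosphatase, followed FOS and FOSB in MOLM-13. It read 9.96, 9.84 and 10.39 with DMSO, 10.29, 10.54 and 10.64 with DAC, and 10.48, 10.26 and 10.47 with NTX-301. As with FOSB, the third DMSO sample lay inside the drug range. DUSP1 was higher by 0.43 ± 0.13 and 0.34 ± 0.13, by 0.59 and 0.50 without that sample, and by 0.32 and 0.23 without the second DMSO sample. In HL-60 it stood at 4.38 to 4.41 in all 9 samples, and no difference was detectable. The 1194 HL-60 genes within 0.5 of that level had a median SD within groups of 0.023, so low spread was common there. DUSP1 was lower still, with an SD of 0.011 at percentile 4.02 of those genes.

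**Figure D2:**
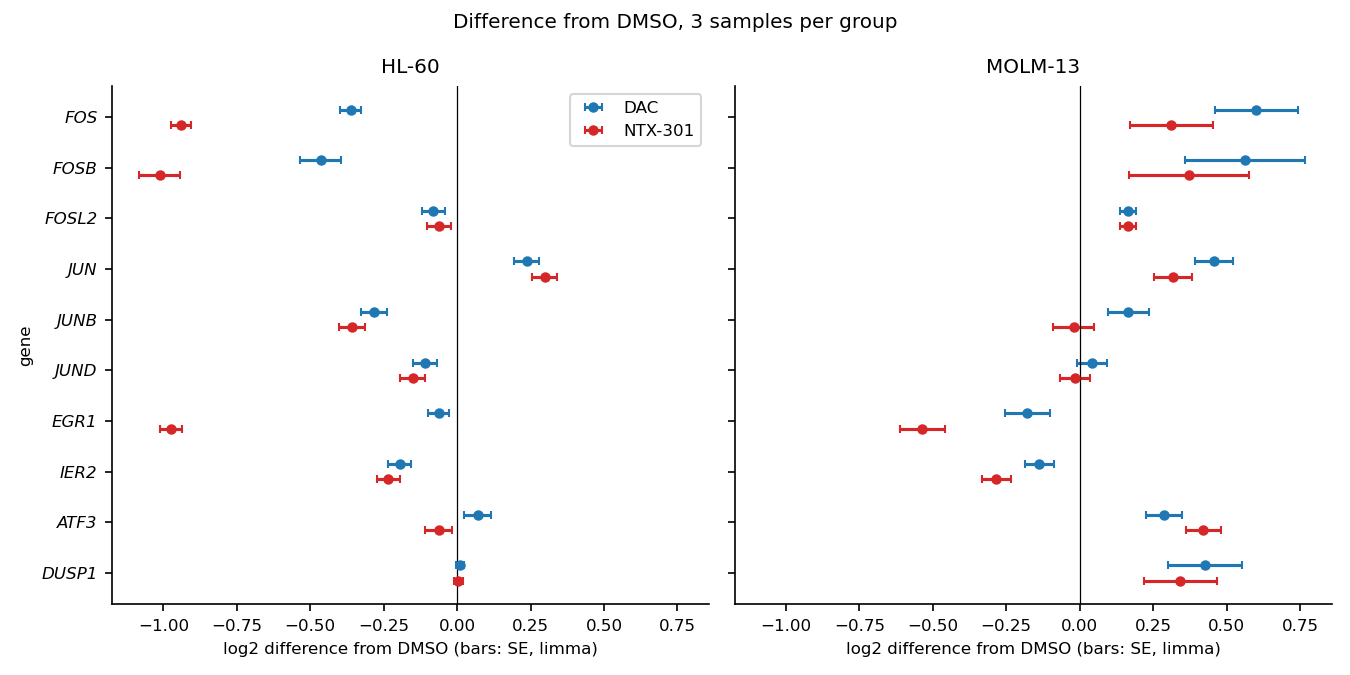
Log2 difference from DMSO (x axis) for each of the 10 genes, with DAC in blue and NTX-301 in red, points at the limma estimate and bars of 1 SE, 3 samples per group. FOS, FOSB and EGR1 lie near -1 with NTX-301 in HL-60, while EGR1 and IER2 are the members left of 0 with both drugs in MOLM-13.

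Counted by samples, 5 members had all DAC samples below all DMSO samples in HL-60 (FOS, FOSB, JUNB, EGR1 and IER2), where 19.2% of all genes did so, and JUN had all of them above (19.3% of all genes). With NTX-301 JUND joined the lower set, making 6 members (24.0% of all genes), and JUN alone was above (23.3%). Set against DAC, every NTX-301 sample was lower for FOS, FOSB, EGR1 and ATF3 (22.2%) and no member was wholly higher (22.2%). In MOLM-13, FOS, FOSL2, JUN and ATF3 were wholly higher with DAC (23.0%) and none wholly lower (24.9%). With NTX-301, FOSL2, JUN and ATF3 were wholly higher (27.2%) and EGR1 and IER2 wholly lower (28.6%), and FOS, EGR1 and IER2 were wholly below DAC (14.4%) with none above (13.0%). Without the third MOLM-13 DMSO sample, 6 members were wholly higher with DAC (26.5%) and 6 with NTX-301 (30.9%), FOSB and DUSP1 among them. Without the first MOLM-13 DAC sample, 8 members were wholly higher than DMSO (29.1%) and for 7 the NTX-301 samples were wholly below DAC (19.1%). Without the first MOLM-13 NTX-301 sample 7 members were wholly below DAC as well (20.2%). The members were chosen with these contrasts in view, so nothing is read from the counts.

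Some members varied more between replicate wells than genes of like level did. In MOLM-13 the SD of FOS within its groups was 0.24, where the median of 614 genes within 0.5 of its level was 0.033, and that of FOSB was 0.35 against 0.048. In HL-60 the SD of FOS was 0.047, close to the 0.042 of genes at its level. FOSB (0.12 against 0.051), JUNB (0.072 against 0.035) and IER2 (0.062 against 0.032) were above theirs in HL-60 too. Over the 9 MOLM-13 samples, the deviations of FOS from its group means ran with those of FOSB (Pearson's r = 0.96) and DUSP1 (0.98), and those of FOSB with DUSP1 (0.99). EGR1 deviated the other way, with r of -0.61 to FOS, -0.71 to FOSB and -0.65 to DUSP1. In HL-60 the closest pairs were JUNB with IER2 (0.92) and JUNB with JUND (0.91), and FOS with FOSB gave 0.80. These correlations describe 9 wells of 1 line, which share depth and handling, and carry no test.

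**Figure D3:**
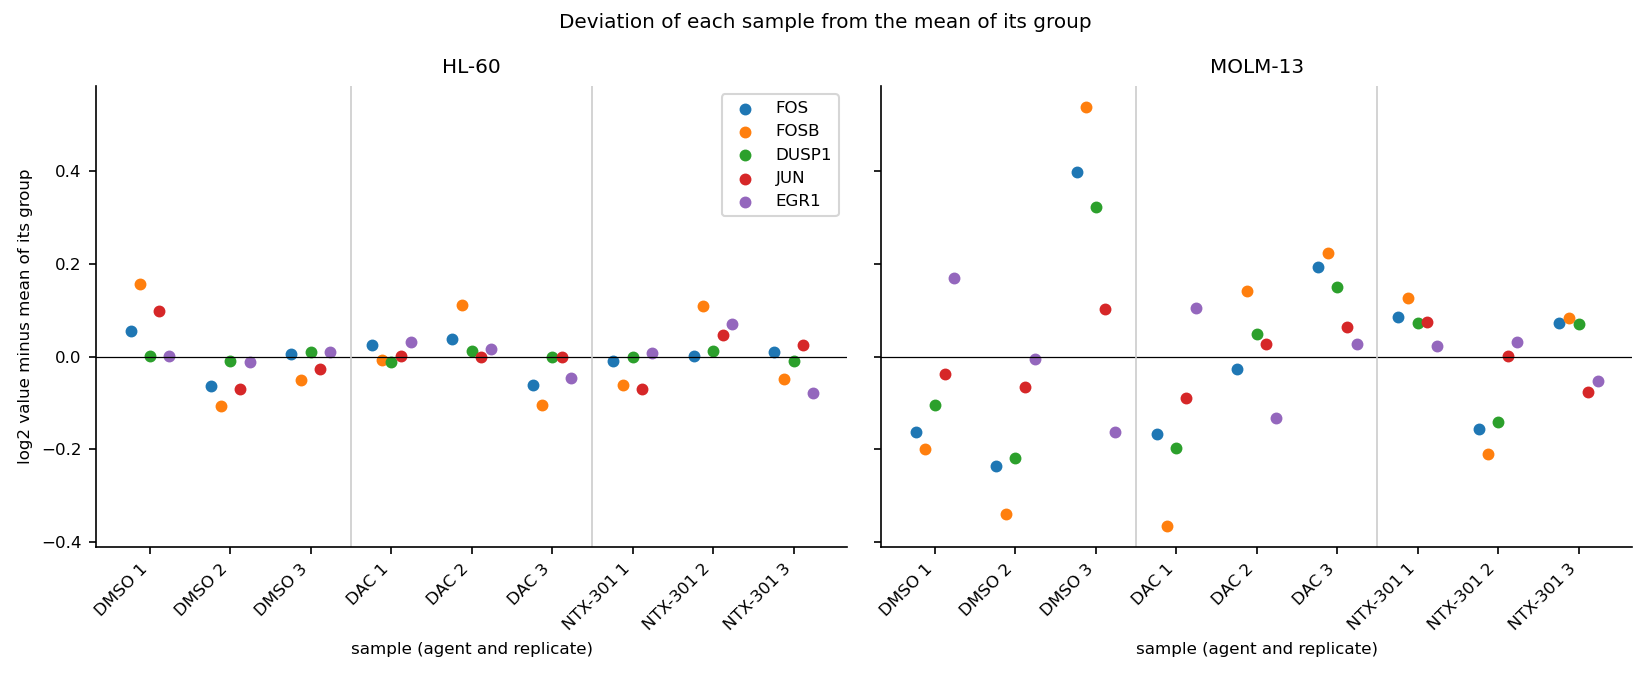
Deviation of each sample's log2 value from the mean of its group (y axis) for FOS, FOSB, DUSP1, JUN and EGR1, with samples along the x axis by agent and replicate. In MOLM-13 FOS, FOSB and DUSP1 rise and dip together from well to well and EGR1 is opposite in DMSO wells 1 and 3, while HL-60 points stay nearer 0.

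Among 158 MOLM-13 genes with an SD within groups of at least 0.15, the 10 whose deviations ran closest to FOS were LOC284454 (r = 0.98), DUSP1, KLF6 (0.97), NR4A2 (0.97), FOSB, KLF2 (0.96), SOCS3 (0.94), KLF4 (0.89), RGCC (0.88) and ANKHD1-EIF4EBP3 (0.86). Among 97 such HL-60 genes the closest were AGAP4 (0.89), NEIL1 (0.78) and PKD1P3 (0.78). No member could appear there, because all 10 had an SD under 0.15 in HL-60, the highest being FOSB at 0.12. FOSB gave r = 0.80 to FOS in HL-60, so the lists of the lines cannot be compared for members. These genes were picked after their values were seen. KLF2, KLF4, KLF6 and NR4A2 are transcription factors also known as immediate-early genes, and SOCS3 is a feedback inhibitor of cytokine signalling.

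Over group levels and wells together, the 5 genes most like FOSB in HL-60 among 286 compared were TRIB1 (r = 0.98), JAG1, NRG4, CCDC57 and CAMKK2 (0.97). Those most like EGR1 were LOC105369312 (r = 0.995), FCAR, LYST, SPNS3 and HERPUD1 (0.99). In MOLM-13, over 280 genes, FOSB was most like TREM1 (0.84), CNTF, RNA45SN3, CILP2 and RGS1 (0.78), and EGR1 was most like OPN3 (0.89), UHRF1, SLC25A10, LGR4 and LOC728688 (0.82). Likeness was Pearson's r over 9 samples. Among them RNA45SN3 is a ribosomal RNA precursor row. The group of rows it belongs to held a higher share with both drugs than with DMSO in MOLM-13.

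The DMSO levels of the members are given side by side for the lines, whose scales appear to have been set separately, and no order between the lines is read from them. DUSP1 stood at 4.39 ± 0.0097 (SD, n = 3) in HL-60 beside 10.06 ± 0.29 in MOLM-13. FOS stood at 11.04 ± 0.060 and 13.90 ± 0.35. FOSL2 stood at 10.58 and 12.98, JUND at 10.84 and 12.30, and FOSB at 9.49 and 10.78. JUN stood at 10.09 in HL-60 beside 8.27, IER2 at 12.24 beside 11.55, ATF3 at 7.91 beside 8.61, JUNB at 11.77 beside 11.79 and EGR1 at 11.15 beside 11.02. The median offset of MOLM-13 from HL-60 over the 15517 shared genes was 0.16.

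The rest of the pathway was tested with limma, over 17046 HL-60 genes and 17475 MOLM-13 genes, at a Benjamini-Hochberg adjusted p-value under 0.05. Of the EGR1 paralogues, EGR3 fell by 0.57 with NTX-301 in HL-60 (limma adjusted p = 4.48e-06) and EGR2 by 0.33 (9.56e-05). With DAC they differed by 0.10 ± 0.060 and -0.0042 ± 0.048, neither past the threshold. In HL-60, EGR3 read 7.85, 7.64 and 7.78 with DMSO and 7.22, 7.17 and 7.18 with NTX-301. In MOLM-13 EGR3 fell by 0.36 with NTX-301 (limma adjusted p = 0.0226). That call was lost without the mean-variance trend and without the first DMSO sample (-0.21), the first NTX-301 sample (-0.34) or the second (-0.36). EGR2, EGR3 and NAB2 were singled out after their values were seen. NAB2, a corepressor that binds EGR proteins and is induced by them, rose by 0.50 with NTX-301 in HL-60 (limma adjusted p = 8.41e-07).

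Of the other AP-1 partners, MAFK, a small MAF protein, fell by 0.41 with DAC and 0.52 with NTX-301 in HL-60 (limma adjusted p = 8.28e-07 and 3.14e-08). JDP2, a repressor that pairs with JUN, fell by 0.17 and 0.24 there. In MOLM-13 ATF7 rose by 0.24 and 0.31. The list held 3 higher and 3 lower of 10 with DAC in HL-60 (24.2% of all genes passed in either direction) and 1 higher and 4 lower with NTX-301 (37.4%). In MOLM-13 it held 1 higher of 11 with DAC (36.6% of all genes) and 1 higher and 2 lower with NTX-301 (45.1%).

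The other immediate-early transcription factors leaned lower with NTX-301 in HL-60 and higher in MOLM-13. Of 14 in HL-60, 3 rose and 6 fell with NTX-301 (37.4% of all genes passed in either direction). Their median was -0.090 beside 0.00082 over all genes. Of 15 in MOLM-13, 7 rose and 2 fell (45.1% of all genes), with a median of 0.20 beside 0.0034. With DAC 7 rose and 1 fell in MOLM-13 (36.6% of all genes), with a median of 0.20 beside 0.0013. In HL-60, 3 rose and 2 fell with DAC (24.2%). NR4A1, an orphan nuclear receptor, rose in MOLM-13 by 0.44 and 0.39, and BHLHE40 rose by 0.29 and 0.46. MYC fell by 0.25 with NTX-301 in HL-60, and by 0.13 and 0.15 in MOLM-13. NR4A2 fell in HL-60 by 0.28 with DAC and 0.63 with NTX-301, and rose in MOLM-13 by 0.32 and 0.34. The MOLM-13 call with DAC was lost without the trend and without DMSO replicate 1 (0.29) or 2 (0.22) or DAC replicate 2 (0.30) or 3 (0.26). The call with NTX-301 was lost without the second DMSO sample (0.25) or the third NTX-301 sample (0.30).

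Among other immediate-early products, 13 of 19 rose with DAC and none fell in MOLM-13 (median 0.21), where 36.6% of all genes passed in either direction. With NTX-301, 12 rose and 1 fell there (median 0.17, 45.1% of all genes). In HL-60, 4 of 16 rose and 4 fell with DAC (24.2%), and 6 rose and 6 fell with NTX-301 (37.4%). PLK2, a stress-responsive kinase, rose in MOLM-13 by 0.53 and 0.57 (limma adjusted p = 1.30e-06 and 5.56e-07). BTG2, an antiproliferative gene and p53 target, rose in both lines, by 0.37 with DAC and 0.88 with NTX-301 in HL-60, and by 0.60 and 0.50 in the other line. TNFAIP3, an inhibitor of NF-kB, rose in HL-60 by 0.29 and 0.46, and differed by -0.029 and -0.031 in MOLM-13, neither past the threshold. TRIB1, a pseudokinase, fell in HL-60 by 0.21 and 0.53 (limma adjusted p = 8.50e-06 and 3.23e-10). In MOLM-13 it rose by 0.15 and 0.14. The MOLM-13 calls did not hold without the trend, with samples centred on their medians, or without DMSO replicate 1 (0.15 and 0.14) or 2 (0.12 and 0.11). The DAC call was also lost without the third DAC sample (0.13), and the NTX-301 call without NTX-301 replicate 1 (0.097) or 3 (0.15).

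**Figure D4:**
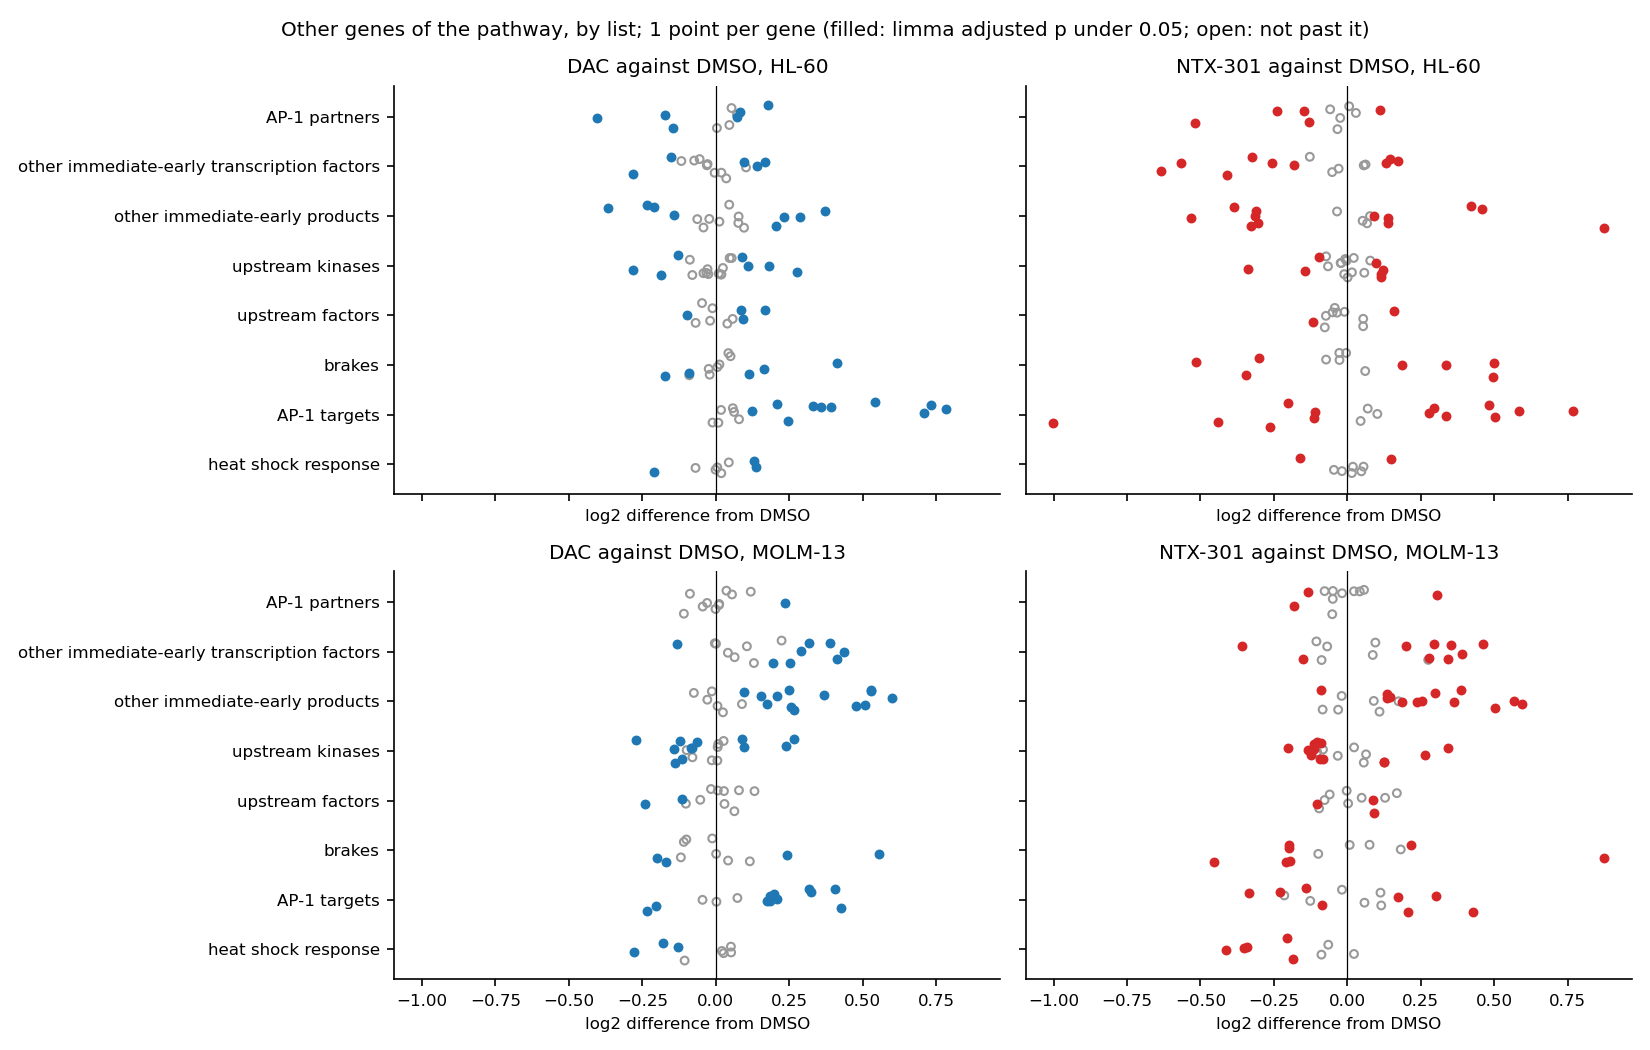
Log2 difference from DMSO (x axis) for every gene of the 8 pathway lists (y axis), 1 point per gene with vertical scatter added for legibility; filled points passed a limma adjusted p of 0.05. In MOLM-13 the points of the other immediate-early products lie mostly to the right of 0, with 13 and 12 of 19 higher. Of all genes 36.6% and 45.1% passed there in either direction.

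The list called brakes in the plot of the pathway lists holds phosphatases and feedback inhibitors of the MAP kinase route and the EGR corepressors NAB1 and NAB2, and its members moved in both directions. DUSP2, a phosphatase of nuclear MAP kinases, fell in both lines, by 0.17 with DAC and 0.51 with NTX-301 in HL-60. Its MOLM-13 values fell by 0.20 and 0.45. SPRY2, an inhibitor of receptor signalling to ERK, fell by 0.091 and 0.34, and by 0.17 and 0.21. DUSP10, a phosphatase of p38 and JNK, rose by 0.41 and 0.50, and by 0.56 and 0.87. With NTX-301 the list had 4 higher and 3 lower of 12 in HL-60 (37.4% of all genes passed in either direction). It had 2 higher and 5 lower of 11 in MOLM-13 (45.1%). With DAC it had 3 higher and 2 lower (24.2%), and 2 higher and 2 lower (36.6%).

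The kinases upstream of these genes differed from DMSO by at most 0.34 in either direction, and the upstream factors by at most 0.24. Of 19 kinases, 4 rose and 3 fell with either drug in HL-60. Of all genes 24.2% passed there in either direction with DAC and 37.4% with NTX-301. In MOLM-13, 4 rose and 8 fell with DAC (36.6% of all genes) and 4 rose and 9 fell with NTX-301 (45.1%). MAP3K8, an activator of the ERK route, rose with DAC in both lines (0.28 and 0.24) and with NTX-301 in MOLM-13 (0.34). RPS6KA4, a kinase acting on CREB and histone H3, fell with NTX-301, by 0.34 in HL-60 and by 0.20 in the other line. MAP2K6, an activator of p38, fell with DAC by 0.28 and 0.27, and in MOLM-13 it was higher with NTX-301 than with DAC by 0.29 (limma adjusted p = 0.00494). Of the upstream factors, 3 of 10 rose and 1 fell with DAC in HL-60 (24.2%) and 1 rose and 1 fell with NTX-301 (37.4%). Of 11 upstream factors in MOLM-13, 2 fell with DAC (36.6%), and 2 rose and 1 fell with NTX-301 (45.1%). The largest differences from DMSO among them that passed were 0.17 for MRTFA, a coactivator of SRF, with DAC in HL-60, and -0.24 for MEF2C with DAC in MOLM-13 (-0.14 under quantile normalisation).

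Genes known as AP-1 targets mostly rose with DAC in both lines and were mixed with NTX-301. Of 16 in HL-60, 10 rose and none fell with DAC, with a median of 0.23 beside 0.00064 over all genes. Of all genes 24.2% passed there in either direction. With NTX-301, 7 rose and 6 fell in HL-60 (37.4% of all genes). Of 14 in MOLM-13, 9 rose and 2 fell with DAC (median 0.18, 36.6% of all genes), and 4 rose and 4 fell with NTX-301 (45.1%). CXCL8, a neutrophil chemokine, rose in HL-60 by 0.39 with DAC and fell by 1.001 with NTX-301, a drug contrast of -1.39 ± 0.035 (limma adjusted p = 1.25e-11). In MOLM-13 it rose by 0.41 with DAC, and the drug contrast was -0.62 ± 0.13 (limma adjusted p = 0.0151). CCL4, a monocyte chemokine, rose by 0.73 with DAC and fell by 0.11 with NTX-301 in HL-60. PTGS2, the inducible cyclooxygenase, rose by 0.78 and 0.30 in HL-60. TIMP1, an inhibitor of matrix proteases, rose with both drugs in both lines, by 0.33 with DAC and 0.77 with NTX-301 in HL-60, and by 0.18 and 0.30 in the other line. PLAUR and CD44 had the lowest adjusted p of the list in MOLM-13 with both drugs. There PLAUR fell by 0.20 with DAC and 0.33 with NTX-301 (limma adjusted p = 5.09e-05 and 1.20e-06). CD44 rose by 0.17 and 0.21 (limma adjusted p = 0.000264 and 4.89e-05). Many of these genes also respond to NF-kB and other factors. In the HL-60 DAC samples 10 of the 16 listed targets were higher, FOS and FOSB were lower and JUN was higher. What part AP-1 or any other factor had in these levels was not tested.

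The heat shock list was included because stress also induces immediate-early genes. In HL-60 it had 2 higher and 1 lower of 8 with DAC (24.2% of all genes passed in either direction). With NTX-301 it had 1 higher and 1 lower there (37.4%). In MOLM-13 it had 3 lower with DAC (36.6%) and 5 lower with NTX-301 (45.1%) and none higher. HSPA8 fell in MOLM-13 by 0.28 and 0.41, and DNAJB1 by 0.18 (0.12 under quantile normalisation) and 0.35. HSPH1 fell by 0.13 and 0.34 there, the second being 0.20 under quantile normalisation. HSPA1A and HSPA1B are near-identical copies whose reads may have been split between them, so their values are uncertain.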

How the data were processed

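Total RNA of 18 samples was sequenced from stranded total RNA libraries, per the labels' protocols. The authors deposited 1 normalised log2 value per gene and sample. The submitters' processing notes name hg19, FastQC, Trimmomatic 0.38, HISAT2 and StringTie. The normalisation and the use of strand are not given in the sources used here, so antisense or overlapping genes may share reads, and no gene coordinates are given in hg19. Without counts the read depth is unknown, and the error is that of the replicates, moderated by limma.

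From these values, group differences were fitted with limma 3.58.1 in R 4.3.3 (two-sided, lmFit and eBayes, trend on), 9 samples per line in 1 fit. A filter for low genes (linear value 1 or more in 3 or more samples) dropped 64 in HL-60 and 0 in MOLM-13. All 10 members passed. The Benjamini-Hochberg adjustment covered every tested gene, and calls were made under 0.05. Effects were compared between lines in 1 fit of 18 samples over 15474 genes. The fit was tested on simulated data. Replicate numbers did not pair the samples, so no block was used.

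The members, the 8 pathway lists and the marker lists were chosen with earlier results of these data known. Named pathway genes were the 2 with the lowest adjusted p per list and drug contrast in each line, and genes outside this rule are said to be chosen after their values were seen. The genes most like FOSB and EGR1 had the highest r among non-members with a mean of at least 5 and a range of group means of at least 0.5. Alternatives were 2 other scalings, no trend, a replicate block, no filter, a mean of at least 5, only the groups compared, and leaving out each replicate. Promoters came from RefSeq (GRCh38.p14).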

Additional observations from a re-analysis of the deposited data

Results flagged for a closer look

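Some genes lay on opposite sides of DMSO in the lines under the same drug. For members this was taken from the samples, as every drug sample of 1 line lying above and every drug sample of the other below the DMSO mean of its line, and the difference was not tested. With DAC the MOLM-13 effect less the HL-60 effect was 0.96 ± 0.16 (limma SE) for FOS and 1.03 ± 0.24 for FOSB. For FOSL2 it was 0.24 ± 0.050 and for JUNB 0.45 ± 0.091. With NTX-301 it was 1.25 ± 0.16 for FOS, 1.38 ± 0.24 for FOSB and 0.23 ± 0.050 for FOSL2. The rule did not ask that groups be apart. FOSL2 overlapped DMSO in HL-60 with both drugs, and JUNB overlapped it in MOLM-13 with DAC. In MOLM-13 FOSB overlapped DMSO with both drugs, and FOS with NTX-301. Without the third MOLM-13 DMSO sample FOS gave 1.16 with DAC and 1.45 with NTX-301, and FOSB 1.30 and 1.65. Without the second MOLM-13 DMSO sample FOS gave 0.85 and 1.13, and FOSB 0.86 and 1.21. For the other pathway genes, which were chosen after their values were seen, the difference passed in the interaction fit of limma and the effect passed in each line with opposite signs.

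With DAC, NR4A2 gave 0.60 (limma adjusted p = 0.00050) and TRIB1 0.36 (6.72e-05), both lower in HL-60 and higher in MOLM-13. PLAUR, the urokinase receptor, gave -0.45 (limma adjusted p = 4.79e-08), with 0.25 in HL-60 and -0.20 in MOLM-13 (-0.13 under quantile normalisation). F3, tissue factor, gave -0.77 (limma adjusted p = 6.63e-08), with 0.54 and -0.23.

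With NTX-301, NR4A2 gave 0.98 (limma adjusted p = 1.57e-06), TRIB1 0.68 (2.49e-08) and KLF6 0.69 (8.88e-05). ZFP36L2, an mRNA decay factor, gave 0.50 (limma adjusted p = 5.20e-08), PLK3 0.46 (1.79e-05) and CCND1, cyclin D1, 0.29 (0.0035). All 6 were lower in HL-60 and higher in MOLM-13. The MOLM-13 effects of KLF6, PLK3 and CCND1 lost their calls in several fits that left out 1 sample. KLF6 gave 0.18 without the second DMSO sample, and CCND1 gave 0.095 under quantile normalisation. Dose and line cannot be told apart here.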

How the results depend on the processing

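MEF2C with NTX-301 in MOLM-13 changed sign under quantile normalisation (0.028, from -0.10), and the cause was not tested. The count of genes called between NTX-301 and DAC in MOLM-13 was 1297, and 817 with the replicate number as a block. It ran from 462 to 1322 when 1 replicate was left out, with 462 without the third and 479 without the second NTX-301 sample and 767 without the first DAC sample. The pathway genes called there were 14, 9 without the mean-variance trend, and 7 to 14 with a replicate left out. The replicate block moved no other count of calls by more than 1.5 times. Same-numbered samples did not deviate together (r from -0.16 to 0.12), and the samples share only a number. CCND1 with NTX-301 in MOLM-13 was the named call lost under the block, with a limma adjusted p of 0.052. Differences of members from DMSO kept their sign in every alternative run, except DUSP1 with both drugs in HL-60 and JUNB and JUND with NTX-301 in MOLM-13, all smaller than their error. Unknown depth and the small spread of low genes limit what can be seen for DUSP1 in HL-60.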
